A study of Homo sapiens with 6 samples.

Results

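Multiple myeloma is a cancer of plasma cells, and antibodies, bispecific antibodies and CAR-T cells against it bind proteins on the myeloma cell surface. The mRNA of 10 such surface antigens was followed in MM.1S cells after knockdown of PRMT1 (PRMT1 KD), with the genes taken by name from a table of 58735 genes. They were TNFRSF17 (BCMA), SLAMF7, CD38, SDC1 (CD138), GPRC5D, FCRL5, LY9 (CD229), CD48, CD46 and CD59. MM.1S is a dexamethasone-sensitive myeloma line in long use, and the labels name no engineered allele. RNA was sequenced from 3 control libraries, from cells given the negative control siRNA si-NC, and from 3 PRMT1 KD libraries, from cells given si-PRMT1. The study's methods give 100 nM of siRNA by lipid transfection and the RNA-seq legend gives collection at 72 h, so both groups had been transfected and neither was untreated. The stated purpose was to find genes downstream of PRMT1, the main enzyme that adds asymmetric dimethyl marks to arginines of proteins.

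The antigens fall into several families with different work at the plasma cell surface. BCMA is a receptor for the survival factors APRIL and BAFF and is cut from the membrane by gamma-secretase. SLAMF7, LY9 and CD48 belong to the SLAM family of immunoglobulin-like receptors on leukocytes, most of which signal by binding a like molecule on a neighbouring cell, and SLAMF7 is the target of elotuzumab. CD38 is an ectoenzyme that consumes NAD and is the target of daratumumab and isatuximab. Syndecan-1, the SDC1 product, carries heparan sulfate chains that hold growth factors at the surface and is the standard marker of plasma cells. GPRC5D is an orphan G protein-coupled receptor and FCRL5 an Fc receptor-like protein of the B lineage, and both are bispecific antibody targets. CD46 and CD59 protect cells from complement, CD46 by helping to inactivate C3b and C4b and CD59 by blocking assembly of the membrane attack complex. CD48 and CD59 are held in the membrane by a glycosylphosphatidylinositol (GPI) anchor.

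The study lists 3 siRNA target sites in the PRMT1 message, and which of them was used for the sequencing is not named. They are shown as the sites at which the listed siRNAs were aimed, and off-target action of the siRNA used was not tested. Each is written as the sense strand on GRCh38, 5′ to 3′, and the capitals mark the bases that pair with guide positions 2 to 8, the seed.
si-PRMT1-1, target in exon 3: gcaactccatgTTTCATAa
si-PRMT1-2, target in exon 9: agacggtgttcTACATGGa
si-PRMT1-3, target in exon 10: ccatcgacctgGACTTCAa
All 3 lie on the plus strand in coding sequence of transcript ENST00000391851.8, the first at chr19:49681947-49681965, the second at chr19:49686635-49686653 and the third at chr19:49688178-49688196. The first site is in 11 of 11 coding PRMT1 transcripts of GENCODE 29 and the others in 4 of 11 each. None of the full target sites occurs in an antigen transcript, and that of si-PRMT1-2 also occurs in PRMT1P1, a PRMT1 pseudogene. The 7 capital bases also occur by themselves in 3′ UTRs, and this was counted over 10085 coding genes in the test. The seed match of si-PRMT1-1 was found in 22.7% of them and in 5 of the 10 antigens (CD38, FCRL5, CD48, CD46 and CD59). That of si-PRMT1-2 was found in 10% and in CD38 and FCRL5, and that of si-PRMT1-3 in 14% and in FCRL5 alone. FCRL5 and LY9 were too low for the test, so they are not among the 10085 genes behind these percentages. The 3′ UTRs of SLAMF7 (8 transcripts), LY9 (5), TNFRSF17 (3), SDC1 (3) and GPRC5D (2) held none of the 3. A match describes letters in a transcript and is no evidence that an siRNA acted there.

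Across all genes, PRMT1 itself had 61.7, 62.8 and 58.9 FPKM in the control libraries and 13.3, 14 and 12.5 FPKM in the PRMT1 KD libraries, which is 21.7% of control (log2 fold change -2.13, limma adjusted p = 2.77e-05). FPKM is fragments on a gene divided by gene length and a scaled library size. The length used for the antigens counts every annotated exonic base, whether or not these cells use it. Levels of different genes can therefore be compared only roughly. Libraries held 14439217 to 16465026 reads on genes, worked back from the FPKM values. All 8 plasma cell markers outside the antigen set (XBP1, PRDM1, IRF4, MZB1, JCHAIN, POU2AF1, DERL3 and FKBP11) were expressed, and their summed level was 1093 to 1159 FPKM in control and 1089 to 1201 FPKM in PRMT1 KD. Monocyte markers summed to under 1 FPKM in each library (0.509 to 0.760) and stromal markers to 0.0504 to 0.121, with FCN1, COL1A2, COL3A1 and LUM listed at 0. B cell markers summed to 6.42 to 7.49 FPKM in control and 6.03 to 6.25 in PRMT1 KD, led by BLK, with MS4A1 listed at 0. T and NK cell markers summed to 37.5 to 40.8 FPKM in control and 40.6 to 43.4 in PRMT1 KD. Most of this sum was CD3E (33.4 and 38.1 FPKM, limma adjusted p = 0.135). CD3G was at 3.08 and 3.01 FPKM and NKG7 at 1.33 and 0.842 FPKM, control first. TRAC was at 0.124 FPKM in control and CD8A was listed at 0. All 8 plasma cell, 3 of 6 B cell and 3 of 8 T and NK cell markers were tested, and none was called. The monocyte and stromal markers did not reach a mean of 1 FPKM, so no call was possible for them. Outside the plasma cell markers, groups lay apart upwards for CD3E and downwards for VPREB3 (1.40 and 0.793 FPKM, limma adjusted p = 0.258). VPREB3 rests on 4 to 16 reads per library. Over all genes tested 25.9% lay apart. Among untested markers, CD3D (0.678 and 0.132 FPKM) and PDGFRB (0.0911 and 0.0328 FPKM) lay apart downwards. They rest on 0 to 13 and 2 to 13 reads per library, so these separations are a matter of few reads. The cells were a single cultured line, so these markers are read as RNA levels in MM.1S. In bulk RNA a change in some cells and a change in all cells cannot be told apart.

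The antigens differed widely in level in control cells. TNFRSF17 was the most abundant at 262 ± 11 FPKM (SD, n = 3), a level at the 99.3rd percentile of the 13585 genes tested, and it made up 63.9% to 66.3% of the summed antigen level in the control libraries. SDC1 (51.4 ± 3.79 FPKM), SLAMF7 (38.0 ± 0.961), CD48 (22.5 ± 0.614), CD46 (17.7 ± 1.52) and CD59 (8.42 ± 0.201) followed in that order. CD38 was much lower, at 1.92 ± 0.148 FPKM and the 17.1st percentile, and GPRC5D stood at 1.36 ± 0.152 FPKM. LY9 (0.610 ± 0.0492 FPKM) and FCRL5 (0.0377 ± 0.00627 FPKM) were below 1 FPKM in each library. The ranges of neighbours in this order did not overlap in the control libraries, and the widest steps were from LY9 to FCRL5 (16.2-fold) and from TNFRSF17 to SDC1 (5.10-fold). The order was the same in PRMT1 KD, where the ranges of CD48 and CD46 overlapped. Order, steps and shares depend on the annotated lengths. CD46, with 8708 exonic bases, had more reads than CD48, with 3274 (means over all libraries of 2579 and 1117).

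**Figure D1:**
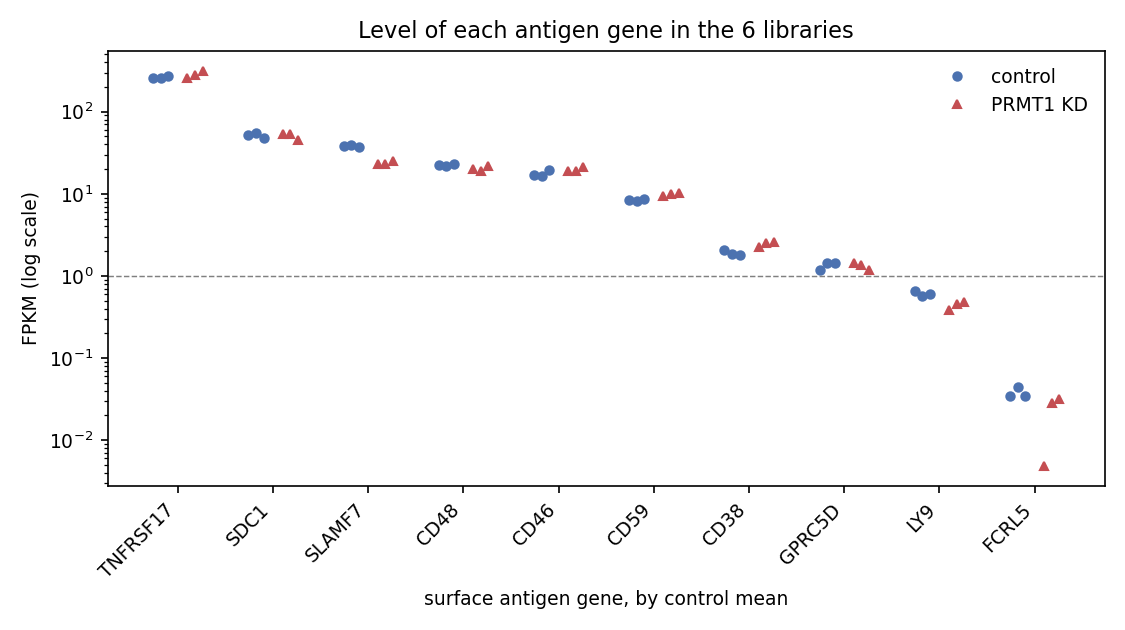
FPKM on a log axis for the 10 antigens in the 3 control libraries (circles) and the 3 PRMT1 KD libraries (triangles), ordered by control mean, with a dashed line at 1 FPKM. TNFRSF17 sits at 255 to 318 FPKM and FCRL5 below 0.05 FPKM, and SLAMF7 is the abundant antigen whose triangles lie clear below its circles.

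The comparison of PRMT1 KD with control asked which antigen genes moved with PRMT1. Of the 10 antigens, 8 had a mean of at least 1 FPKM and entered the test, and each of the 8 was above 1 FPKM in every library. One of the 8 (12.5%), SLAMF7, passed an adjusted p of 0.05, where 2.05% of all 13585 genes did (134 lower and 145 higher). With so few antigens a count of 1 says little about the set. Their median log2 fold change was 0.052, beside 0.0095 for all genes tested, with 4 values above 0 and 4 below. The control and PRMT1 KD values did not overlap for 3 of the 8 (SLAMF7 lower, CD38 and CD59 higher), or 37.5%, where 25.9% of all genes tested had groups without overlap. The labels do not say whether libraries of a group came from separate cultures, and the study calls its biological replicates dependent, so p-values measure the spread between these libraries only.

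**Figure D2:**
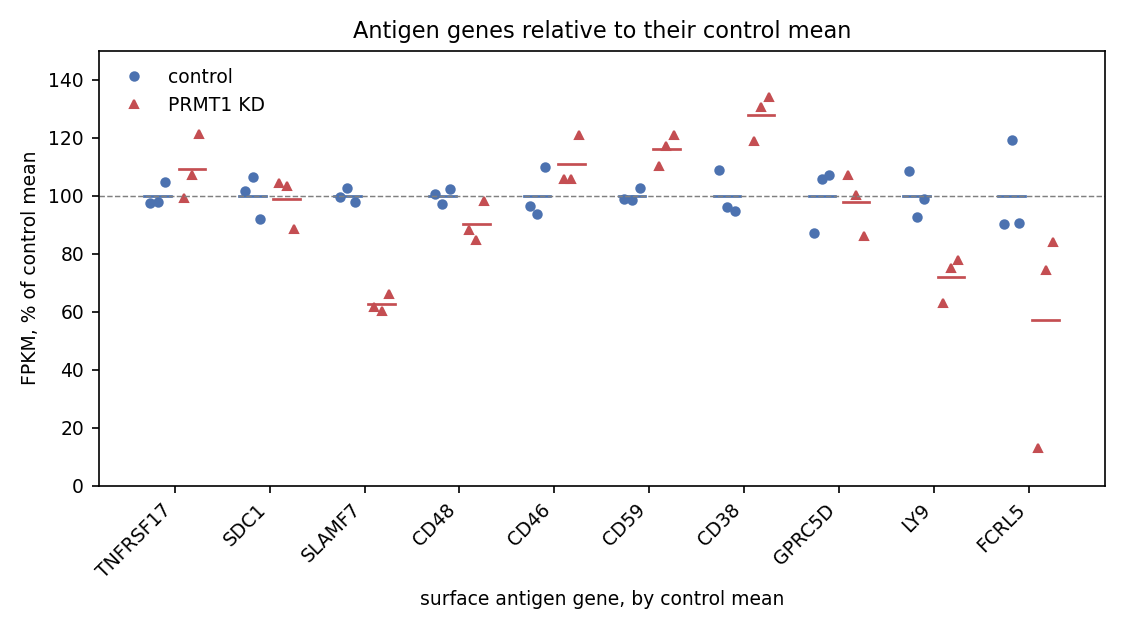
FPKM of each antigen as a percentage of its control mean, for 3 control libraries (circles) and 3 PRMT1 KD libraries (triangles), with group means as lines. SLAMF7 stands at 62.7% of control with little spread, and CD38 and CD59 at 128% and 116%, while the 13% point of FCRL5 is a library with 1 read.

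SLAMF7 (ENSG00000026751, chr1:160739057-160754821 on GRCh38, plus strand) fell to 62.7% of its control level. It had 37.8, 39.0 and 37.1 FPKM in the control libraries and 23.4, 22.9 and 25.1 FPKM in the PRMT1 KD libraries. These values rest on 2966 to 3042 reads per control library and 1595 to 1865 per PRMT1 KD library. Every PRMT1 KD library was below every control library, and the gap between the groups was several times the spread within either. The mean was 38.0 ± 0.961 FPKM in control and 23.8 ± 1.17 FPKM in PRMT1 KD (SD, n = 3 each). On the log2(FPKM + 1) scale used for all tests here, SLAMF7 fell by 0.65 (SE 0.0505, 95% confidence interval -0.77 to -0.53, limma adjusted p = 0.00515). It ranked 10 of 13585 by p-value, and 24 of the 134 genes called lower by size of change. The exact permutation test gave p = 0.1, the smallest that 3 libraries against 3 allow. SLAMF7 shares no exonic base with another annotated gene.

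**Figure D3:**
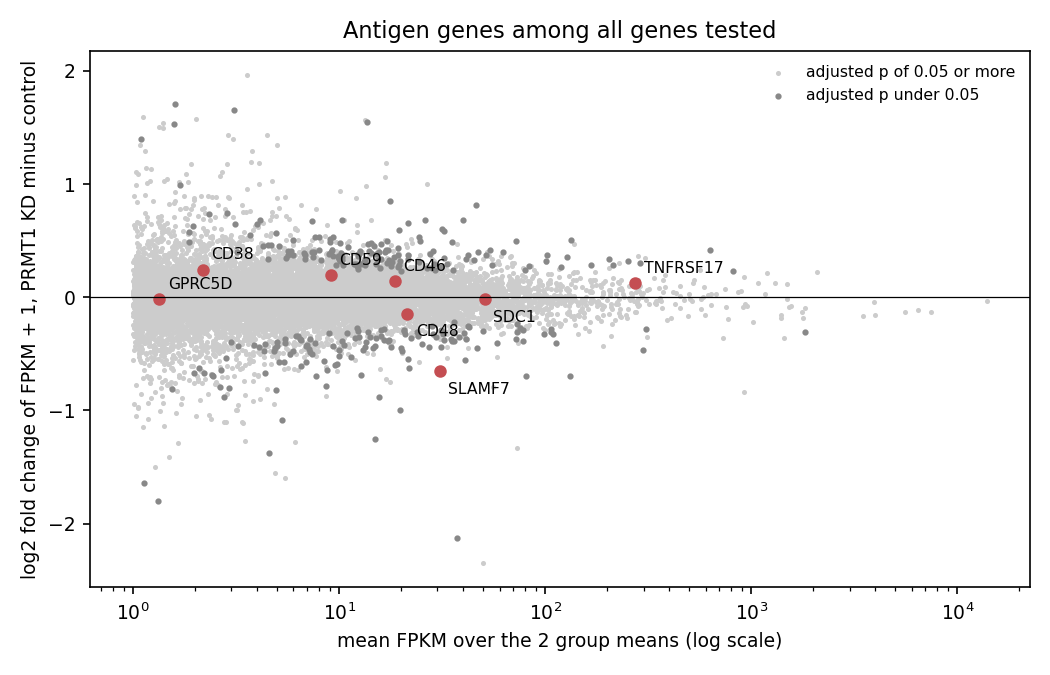
Log2 fold change of FPKM + 1 (PRMT1 KD minus control) against mean FPKM on a log axis for the 13585 genes tested, with called genes in dark grey and the 8 tested antigens as labelled red points. SLAMF7 lies among the called genes at -0.65, and the other 7 antigens lie between -0.14 and 0.24 within the cloud of genes not called.

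The 3 genes whose values followed SLAMF7 most closely over the 6 libraries were WARS (Pearson r = 0.996), EFNA4 (r = 0.994) and SPARC (r = 0.993). WARS encodes tryptophanyl-tRNA synthetase, EFNA4 the ligand ephrin-A4 and SPARC a secreted matrix glycoprotein. Their levels went from 129 to 97.3 FPKM, from 8.56 to 5.82 FPKM and from 14.2 to 10.9 FPKM, with adjusted p-values of 0.0144, 0.0199 and 0.0348. With 1 library left out these ran from 0.0303 to 0.104 for WARS, where 4 of 6 fits lost the call, from 0.0473 to 0.116 for EFNA4, where 5 did, and from 0.0572 to 0.158 for SPARC, where all 6 did. The 6 libraries share the division into 2 groups, so these correlations describe the same difference between groups and carry no test.

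CD48 and LY9 lie beside SLAMF7 in the SLAM gene cluster of chromosome 1. From CD48 to LY9 the cluster spans chr1:160678746-160828261, or 149.5 kb, and holds 6 genes of the table. This span was drawn after the values had been seen. CD48 (ENSG00000117091), a GPI-anchored ligand of the NK cell receptor CD244, had 22.6, 21.9 and 23.1 FPKM in control and 19.8, 19.1 and 22.1 FPKM in PRMT1 KD. One PRMT1 KD library reached into the control range, and the difference did not pass the test (log2 fold change -0.14, SE 0.0630, interval -0.29 to 0.0052, adjusted p = 0.270). LY9 (ENSG00000122224), a homophilic receptor under study as a CAR-T target, had 0.662, 0.564 and 0.604 FPKM in control and 0.385, 0.457 and 0.475 FPKM in PRMT1 KD. All 3 PRMT1 KD values of LY9 were below the control values, at a mean of 72% of control and on 58 to 100 reads per library, and LY9 was too low to enter the test (exact permutation p = 0.1). The remaining 3 genes of the span, an antisense RNA and 2 pseudogenes, were at or below 0.579 FPKM. The antisense RNA AL121985.1 shares 29.8% of the exonic bases of CD48 on the other strand, at 0.0674 to 0.147 FPKM, and no source used here says whether counting used strand. Within each library SLAMF7 was 1.61 to 1.79 times CD48 in control and 1.14 to 1.20 times CD48 in PRMT1 KD.

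Of 10 genes for other SLAM family receptors, their ligands and adaptors (SLAMF1, SLAMF6, SLAMF8, SLAMF9, CD84, CD244, CD2, CD58, SH2D1A and SH2D1B), CD58, the ligand of CD2, was alone in passing the filter. CD58 had 26.3 ± 1.54 FPKM in control and 28.7 ± 0.583 in PRMT1 KD, with no overlap between groups and no call (log2 fold change 0.13, adjusted p = 0.259). SLAMF6, SLAMF9, CD84 and SH2D1A were listed at 0 in the 6 libraries, and the other genes that did not pass were at or below 0.212 FPKM.

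TNFRSF17 (ENSG00000048462, chr16:11965107-11968068, plus strand) kept its place as the most abundant antigen. Control libraries had 255, 256 and 275 FPKM and PRMT1 KD libraries 260, 280 and 318 FPKM, on 4514 to 5407 reads. The lowest PRMT1 KD library lay within the control range, and the mean of 286 ± 29.1 FPKM differed from the control mean by less than the spread in PRMT1 KD. The test gave a log2 fold change of 0.12 (SE 0.0768, interval -0.059 to 0.30, adjusted p = 0.434), which became 0.045 without PRMT1 KD replicate 3 and 0.19 without PRMT1 KD replicate 1. As a share of the summed antigen level TNFRSF17 went from 63.9% to 66.3% in the control libraries to 66.8% to 71.2% in the PRMT1 KD libraries, with no overlap (exact permutation p = 0.1), while the share of SLAMF7 went from 8.97% to 9.75% to 5.61% to 6.01% (exact permutation p = 0.1). Shares of CD38 and CD59 also lay apart upwards, and those of CD48, LY9 and FCRL5 downwards (exact permutation p = 0.1 each). The antigen shares sum to a whole in each library, so they do not move separately.

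Genes around BCMA gave no call. Of 10 genes for its ligands, its sister receptors and gamma-secretase, 6 were tested, with a median log2 fold change of -0.013. APH1A, a gamma-secretase subunit, was the most abundant at 110 ± 4.37 FPKM in control and 104 ± 3.94 in PRMT1 KD (adjusted p = 0.442). TNFRSF13C, the BAFF receptor, was the 1 gene of the 6 whose groups did not overlap, at 3.71 ± 0.285 and 4.81 ± 0.395 FPKM (log2 fold change 0.30, adjusted p = 0.109). The share without overlap was 25.9% over all genes tested. TNFRSF13B, the receptor TACI, and PSENEN, a gamma-secretase subunit found in most cells, were listed at 0, so a 0 in this table need not mean that a gene was silent.

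CD38 (ENSG00000004468, chr4:15778275-15853230, plus strand) was higher in each PRMT1 KD library than in any control library without passing the test. It had 2.09, 1.85 and 1.82 FPKM in control and 2.28, 2.50 and 2.57 FPKM in PRMT1 KD, on 204 to 268 reads per library. The mean went from 1.92 ± 0.148 to 2.45 ± 0.151 FPKM, or 128% of control. The log2 fold change was 0.24 (SE 0.0874, interval 0.035 to 0.45), with p = 0.0277 by limma and 0.193 after adjustment over all genes, and the exact permutation p was 0.1. Counting error at this depth (6.81% of the mean) was close to the spread of 7.74% between the control libraries. The pseudocount of 1 is large beside these values, so the log2 fold change understates the change in FPKM.

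The NAD ectoenzymes and adenosine pathway genes that act beside CD38 were mostly below 1 FPKM. Of 7 genes NAMPT, which makes the precursor of NAD from nicotinamide, was the 1 tested, with 28.0 ± 2.79 FPKM in control and 34.0 ± 4.34 in PRMT1 KD (log2 fold change 0.27, adjusted p = 0.218). Its groups overlapped, and ENPP1 was listed at 0.

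Both complement regulators among the antigens had positive fold changes, and neither was called. CD59 (ENSG00000085063, chr11:33703010-33736491, minus strand) had 8.32, 8.29 and 8.65 FPKM in control and 9.30, 9.87 and 10.2 FPKM in PRMT1 KD. All 3 PRMT1 KD libraries were above the control range, at a mean of 116% of control (log2 fold change 0.19, SE 0.0544, interval 0.065 to 0.32, adjusted p = 0.120, exact permutation p = 0.1). Another gene on the same strand, AL049629.2, shares 6.07% of the exonic bases of CD59. CD46 (ENSG00000117335, chr1:207752057-207795513, plus strand) had 17.1, 16.6 and 19.4 FPKM in control and 18.7, 18.7 and 21.4 FPKM in PRMT1 KD, and the groups overlapped (log2 fold change 0.14, SE 0.0793, interval -0.045 to 0.33, adjusted p = 0.377). The fold change of CD46 became 0.081 without PRMT1 KD replicate 3. Neither CLU nor CD55, which also restrain complement, was called. The groups of both lay apart upwards, as groups lay apart in 1 direction or the other for 25.9% of all genes tested. CLU, the fluid-phase inhibitor clusterin, was at 5.88 ± 0.398 and 6.45 ± 0.153 FPKM (adjusted p = 0.368), and CD55, the decay-accelerating factor, had 4.61 ± 0.176 and 5.28 ± 0.732 FPKM (adjusted p = 0.400).

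**Figure D4:**
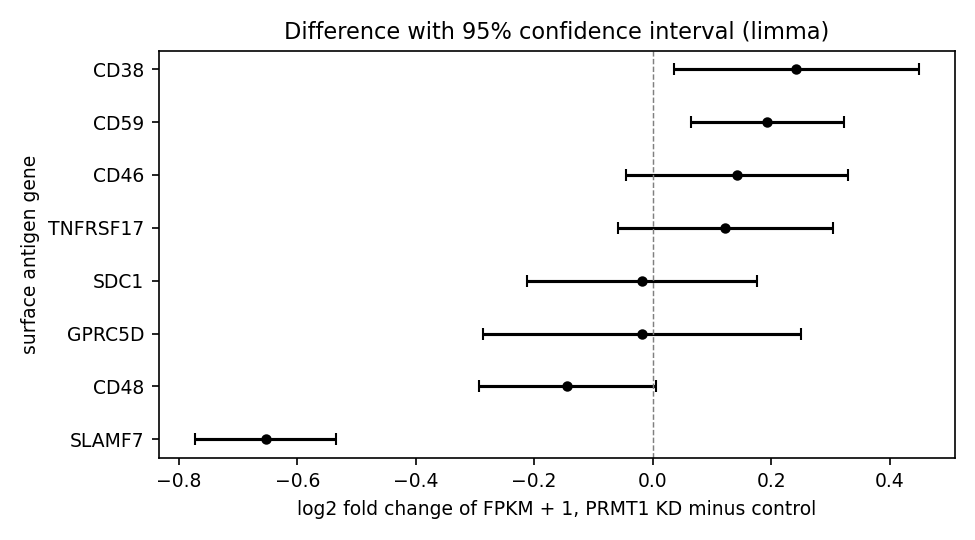
Log2 fold change of FPKM + 1 (PRMT1 KD minus control) with its 95% confidence interval from limma, before any adjustment for multiple tests, for the 8 antigens tested. The intervals of SLAMF7 (-0.77 to -0.53), CD38 (0.035 to 0.45) and CD59 (0.065 to 0.32) leave out 0, and that of SLAMF7 lies apart from the other 7.

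SDC1 (ENSG00000115884, chr2:20200797-20225433, minus strand) did not differ detectably between the groups. Control libraries had 52.2, 54.7 and 47.3 FPKM and PRMT1 KD libraries 53.7, 53.1 and 45.5 FPKM, so the ranges lay almost on top of each other. The log2 fold change was -0.018 (SE 0.0819, interval -0.21 to 0.18, adjusted p = 0.934), an interval that still holds changes of either sign. Of 15 genes for other syndecans, heparan sulfate synthesis and shedding 10 were tested and none called, at a median log2 fold change of 0.013. EXT2, a heparan sulfate polymerase subunit, was the highest at 27.9 ± 1.46 and 28.8 ± 0.331 FPKM (adjusted p = 0.662). SDC3, another syndecan, was the 1 gene of the list whose groups lay apart downwards, at 13.0 ± 0.832 and 10.8 ± 1.20 FPKM (log2 fold change -0.25, adjusted p = 0.187). EXTL3, a glycosyltransferase of heparan sulfate synthesis, was the 1 gene whose groups lay apart upwards, at 5.68 ± 0.0743 and 6.17 ± 0.280 FPKM (log2 fold change 0.10, adjusted p = 0.383). Groups lay apart for 25.9% of all genes tested. HPSE, which encodes heparanase, was listed at 0, which need not mean that it was silent.

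GPRC5D and FCRL5 were too low in MM.1S for a small change to show. GPRC5D (ENSG00000111291, chr12:12940775-12952147, minus strand) had 1.18, 1.43 and 1.45 FPKM in control and 1.45, 1.36 and 1.17 FPKM in PRMT1 KD, on 20 to 27 reads per library. The groups covered the same range, with a log2 fold change of -0.018 (SE 0.113, interval -0.29 to 0.25, adjusted p = 0.954). Counting error by itself came to 20.0% of the GPRC5D mean in control. FCRL5 (ENSG00000143297, chr1:157513377-157552520, minus strand) was covered by 7, 9 and 7 reads in control and by 1, 5 and 6 reads in PRMT1 KD. These equal 0.0340, 0.0449 and 0.0341 FPKM in control and 0.00488, 0.0280 and 0.0317 FPKM in PRMT1 KD, all lower than control but separated by as little as 1 read (exact permutation p = 0.1). None of 10 paralogs (FCRL1, FCRL2, FCRL3, FCRL4, FCRL6, FCRLA, FCRLB, GPRC5A, GPRC5B and GPRC5C) passed the filter, and the highest value among them was 0.148 FPKM, of FCRL3 in 1 PRMT1 KD library. The highest means were 0.0934 FPKM in control, of FCRLA, and 0.0807 FPKM in PRMT1 KD, of FCRL3.

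Ratios within a library do not depend on how libraries were scaled to each other, and 7 of the 9 ratios of SLAMF7 to another antigen were lower in each PRMT1 KD library than in any control library. The SLAMF7 to TNFRSF17 ratio went from 0.145 in control to 0.0836 in PRMT1 KD (57.5% of control), SLAMF7 to SDC1 from 0.741 to 0.473 (63.8%) and SLAMF7 to CD38 from 19.9 to 9.73 (48.9%). SLAMF7 to CD46 stood at 56.3% of control, to CD59 at 53.9%, to CD48 at 69.5% and to GPRC5D at 64.2%. Each of these 7 ratios had an exact permutation p = 0.1, the smallest possible, unadjusted over the 9 ratios computed and all sharing the same SLAMF7 values. SLAMF7, the numerator throughout, is the antigen called lower in these same libraries. Lower ratios to antigens that fell less or not at all therefore follow from that call and add no separate support to it. The ratio to LY9 went from 62.6 to 54.6 (87.2%) with overlapping groups (exact permutation p = 0.2). The groups of the ratio to FCRL5, which rests on few reads, overlapped too (exact permutation p = 1).

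**Figure D5:**
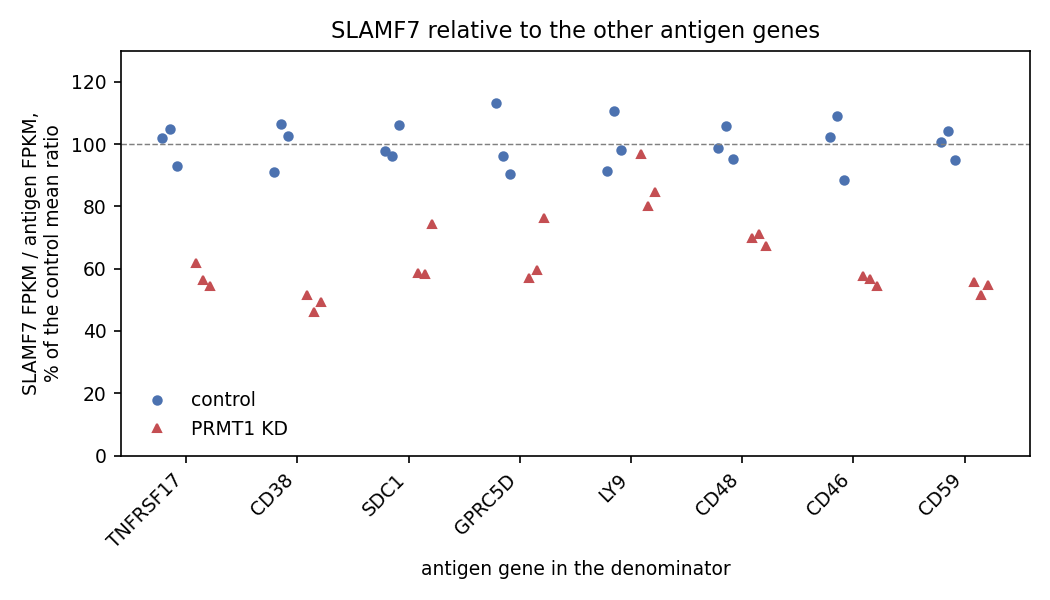
Ratio of SLAMF7 FPKM to the FPKM of another antigen within each library, as a percentage of the mean control ratio, for 3 control libraries (circles) and 3 PRMT1 KD libraries (triangles), with FCRL5 left out for its low reads. All PRMT1 KD points lie below the control points except for the ratio to LY9, where the groups overlap.

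CD48 and CD59 need a GPI anchor to reach the surface, and 26 of 28 genes of GPI anchor synthesis were tested. Of these, 1 was called higher and 1 lower, beside 2.05% of all genes tested, and the median log2 fold change was -0.026. Groups lay apart downwards for 3 (PIGO, PIGT and DPM3) and upwards for 3 (PIGF, PIGS and GPAA1), beside 25.9% of all genes tested. GPAA1, a subunit of the transamidase that joins the anchor to the protein, rose from 112 ± 6.82 to 143 ± 7.80 FPKM (log2 fold change 0.35, adjusted p = 0.0462). DPM3, a subunit of dolichol-phosphate mannose synthase, which supplies mannose to the anchor and to N-glycans, fell from 41.1 ± 0.432 to 31.2 ± 2.03 FPKM (log2 fold change -0.39, adjusted p = 0.0321). Neither call held when any 1 library was left out, with adjusted p-values of 0.0659 to 0.182 for GPAA1 and 0.0627 to 0.143 for DPM3. PIGY was listed at 0, which need not mean that it was silent.

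Among 30 other surface antigens described in myeloma 14 were tested, and 1, IL6R, was called, beside 2.05% of all genes tested. IL6R, the receptor chain for interleukin-6, a growth factor of myeloma cells, had 25.9, 24.2 and 24.3 FPKM in control and 39.2, 38.1 and 37.3 FPKM in PRMT1 KD. Every PRMT1 KD library was far above the control libraries, and IL6R rose by 0.60 on the log2 scale (SE 0.0465, interval 0.49 to 0.71, adjusted p = 0.00515), close in size to the fall of SLAMF7. Of the 14 genes 13 had fold changes above 0, the exception being CD40, and the median was 0.13. In 5 of the 14 the groups did not overlap, all higher in PRMT1 KD (IL6R, BST2, CD47, LILRB4 and TFRC), beside 25.9% of all genes tested. Below the filter, CD28 (0.976 ± 0.197 and 0.635 ± 0.110 FPKM, on 41 to 89 reads) and CD276 (0.168 ± 0.0718 and 0.101 ± 0.0265 FPKM) had groups that lay apart downwards. BST2, tetherin, was the most abundant at 186 ± 9.72 and 205 ± 4.43 FPKM (adjusted p = 0.169). CD47, the signal that holds off phagocytosis, had 9.97 ± 0.329 and 11.6 ± 0.780 FPKM (adjusted p = 0.149). CD44, MS4A1, CXCR4 and KIT were listed at 0, which, as for PSENEN, need not mean that they were silent.

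The 8 plasma cell markers showed no called change, and their median log2 fold change was 0.0041. JCHAIN, the joining chain of secreted IgA and IgM, was the highest at 496 ± 39.4 and 543 ± 63.1 FPKM (adjusted p = 0.50). IRF4 was at 116 ± 1.36 FPKM in control and 116 ± 1.37 in PRMT1 KD. Groups lay apart downwards for XBP1 (287 ± 4.81 and 262 ± 5.37 FPKM, adjusted p = 0.133) and PRDM1 (18.1 ± 0.532 and 15.9 ± 0.901 FPKM, adjusted p = 0.136), and upwards for MZB1 and DERL3. Over all genes tested, 25.9% had groups without overlap, and with 8 markers such a count says little.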

How the data were processed

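RNA-seq of MM.1S cells was analysed in 3 control and 3 PRMT1 KD libraries grouped by their labels. The deposited values are FPKM, as the authors made them. The submitters' processing notes name featureCounts 1.5.0-p3 and hg38, and the aligner and strand setting are not given in the sources used here. FPKM multiplied by gene length gave whole multiples of 1 step per library for 100% of values above 0 (tolerance 0.01), which returned 14439217 to 16465026 reads per library and showed that the deposited FPKM values already carry a median-of-ratios scaling. All 58735 gene IDs were in GENCODE 29, whose GRCh38 annotation gave transcripts and overlaps.

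The 2 groups were compared by limma (version 3.58.1, R 4.3.3) after taking log2(FPKM + 1), with moderated variances that follow the mean (two-sided, Benjamini-Hochberg over 13585 genes with a mean of at least 1 FPKM, threshold 0.05), and for single values with an exact two-sided permutation test. The fit was checked on simulated data. Members and gene lists were chosen with earlier results of these data known. Named genes are the antigens, PRMT1, called genes or else the most abundant gene of each list, genes behind counts of 5 or fewer, and the 3 genes most correlated with a called antigen. CD47, TNFRSF13C and XBP1 are such genes behind small counts. Alternatives covered pseudocount, filter, scaling, trend, a replicate block, voom on reads and each library left out. One gene list is not reported here in full.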

Additional observations from a re-analysis of the deposited data

How the results depend on the processing

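SLAMF7 passed the threshold in the lower direction in 15 of 15 alternatives (log2 fold change -0.69 to -0.63, adjusted p 5.94e-10 to 0.0490), and so was PRMT1 (-2.23 to -2.09), while IL6R was higher in 15 of 15. The number of genes called moved from 279 to 35 with no filter, 473 with a filter at 5 FPKM, 43 without trend, 889 with voom on reads, 868 with voom on reads and no filter (chosen after seeing the data), and 13 to 95 with 1 library left out, whichever it was. The causes of these shifts were not tested. The split of 134 lower and 145 higher became 139 and 82 under median scaling and 133 and 222 in TPM. Of the 9 other antigens none passed in any alternative, with adjusted p-values of 0.0811 to 0.401 for CD38 and 0.0749 to 0.333 for CD59. SDC1 (-0.018) changed sign in TPM (0.0017) and ranged from -0.076 to 0.058 with 1 library left out, the sign turning without control replicate 2 (0.028) or PRMT1 KD replicate 3 (0.058). GPRC5D (-0.018) ranged from -0.072 to 0.032 with 1 library left out, turning without control replicate 2 (0.0066), control replicate 3 (0.012) or PRMT1 KD replicate 3 (0.032). BLK (-0.0095) became 0.0074 in TPM and ranged from -0.061 to 0.038 with 1 library left out. The median of the syndecan list (0.013) moved to -0.047 with a filter at 5 FPKM and -0.054 with voom and no filter, and that of the other surface antigens (0.13) to 0.030 with no filter and 0.071 with voom and no filter, where genes near 0 FPKM enter. LY9 and FCRL5 enter the fit only with no filter, at adjusted p = 0.602 and 0.729, and under voom at 0.260 and 0.554. Deviations of same-numbered libraries correlated by 0.020, 0.063 and 0.101, and those of differently numbered libraries by -0.075 to 0.019. Whether the numbers pair the libraries is not settled by these low values. Each library correlated best with its own number, though control replicate 1 by only 0.020 against 0.019 for PRMT1 KD replicate 2. Deviations within a group sum to 0, so these correlations are linked. The match is a weak hint from the data and not from the design. The fit with the replicate block called 204 genes, 147 of them among the 279, with SLAMF7 at -0.65 (adjusted p = 0.0437), and changed no antigen's call. CD38 and GPRC5D do not reach a mean of 5 FPKM. At this depth GPRC5D and FCRL5 rest on 1 to 27 reads per library, so small changes in them were not detectable.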
